A study of Homo sapiens with 12 samples.

Results

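The genes described here are 44 genes of the amino acid response directed by the transcription factor ATF4, grouped by role as 11 regulators, 11 enzymes of amino acid synthesis, 8 amino acid transporters, 12 cytosolic tRNA synthetases and 2 secreted or cell-surface proteins. They were chosen by gene symbol as textbook members of the response, with earlier results of these data known, and all 44 were found among the 57773 genes of the count table. After a filter on low counts 43 of the 44 were tested, among 20571 genes in all. CBS, which makes cystathionine, was the member not tested, with 0 to 4 reads per library.

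RNA was sequenced in bulk from MDA-MB-231, an established human cell line from triple-negative breast cancer, grown in DMEM with fetal bovine serum. The 4 groups, of 3 libraries each, were untreated cells (libraries 1 to 3), cells given transforming growth factor β, TGFβ (4 to 6), cells given alisertib, an inhibitor of the mitotic kinase Aurora A (7 to 9), and cells given both (10 to 12). Treatment lasted 48 h, while the labels give no time for the untreated cells. Doses, a vehicle for the controls, the timing of the agents relative to each other and whether cultures were replicated within a group are not given in the sources used here, so the p-values measure the spread between these libraries, which may be technical. Everything below concerns 1 line and 1 length of treatment.

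When amino acids run short, or when unfolded protein, heme shortage or double-stranded RNA is sensed, kinases phosphorylate the translation factor eIF2. Most translation then slows, while the ATF4 message, held back by upstream reading frames, is translated. ATF4 pairs with C/EBP proteins and switches on genes that make, import and charge amino acids, together with DDIT3 (CHOP) and with PPP1R15A (GADD34), the regulatory subunit that brings a phosphatase to eIF2 and closes the loop. Because ATF4 is set largely at translation, its message need not follow its protein, and no protein was measured here.

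ATF4 binds C/EBP-ATF response elements, whose core can be written TGATGNAA. This motif was searched on both strands in the promoter sequences of RefSeq (GRCh38.p14), from 250 bases before to 50 bases after each start. Promoters were found for 36 of the 44 genes, and 14 of those 36 (38.9%) held a match, against 3.6% of 15843 coding genes. The list was drawn up from known ATF4 targets, so this share describes the choice of genes. By role, matches lay in 7 of the 10 tRNA synthetases searched, 4 of 7 transporters, 2 of 10 regulators and 1 of 7 synthesis enzymes. Of the 14 genes, 10 shared the letters TGATGCAA, read as TTGCATCA from the other strand. The following are shown because they include the best-studied element (ASNS), the gene that fell most with both agents (SLC1A4), and genes that rose, fell or passed no test while carrying the same 8 letters. Each is given 5′ to 3′ on the strand of its gene, with the match in capitals.
ASNS, chr7:97872443-97872502, minus strand: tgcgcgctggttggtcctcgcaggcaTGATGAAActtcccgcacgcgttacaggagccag
SLC1A4, chr2:64989381-64989410, plus strand: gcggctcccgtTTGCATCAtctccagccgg
CEBPG, chr19:33374045-33374104, plus strand: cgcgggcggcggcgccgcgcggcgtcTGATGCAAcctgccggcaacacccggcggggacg
CHAC1, chr15:40953236-40953295, plus strand: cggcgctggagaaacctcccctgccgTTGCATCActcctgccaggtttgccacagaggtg
MARS, chr12:57488053-57488082, plus strand: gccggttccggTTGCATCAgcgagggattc
CARS, chr11:3057407-3057436, minus strand: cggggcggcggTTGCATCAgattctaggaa
AARS, chr16:70289660-70289719, minus strand: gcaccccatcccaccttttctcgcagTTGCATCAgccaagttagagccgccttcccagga
The match began 68 bases before the start in ASNS, 7 in SLC1A4, 42 in CEBPG, 209 in CHAC1, 4 in MARS, 2 in CARS and 187 in AARS. In SLC1A4, MARS and CARS it ran across the start. The palindromic cyclic AMP response element TGACGTCA, another site of the ATF family, was found in 1 of the 36 genes, against 3% of coding genes. That gene was PPP1R15A, the member that alisertib raised most among those called, with the match 58 bases before its start.
PPP1R15A, chr19:48872337-48872396, plus strand: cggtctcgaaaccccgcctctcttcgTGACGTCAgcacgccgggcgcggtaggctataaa
A match is a description of letters and does not show that a factor bound there.

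Reads assigned to genes numbered 93701658 to 120619368 per library. Libraries 1, 6, 9 and 10, 1 of each group, stood apart: over genes, their deviation from the mean of their group fell with GC content (rank correlation -0.79 to -0.72). In the other 8 it rose (0.15 to 0.82), which follows in part because deviations within a group cancel. GC-rich members show the fall: SLC7A5 was lowest in the library that stood apart in every group. The numbers of members called in each comparison are therefore also given without these 4 libraries. They were picked from the same data, and without them 2 libraries per group remain. P-values of that fit may therefore be too small. TGFβ treatment was visible in 4 TGFβ targets, whose summed level was 456 to 492 CPM (counts scaled to library size) untreated and 4321 to 4393 with TGFβ. The mitosis genes AURKA, AURKB, PLK1 and CCNB1 were a second check. With alisertib AURKA rose (0.23 on the log2 scale), while AURKB (-0.06), PLK1 (0.05) and CCNB1 (0.09) did not pass. TGFβ lowered AURKA (-0.71), PLK1 (-0.40) and CCNB1 (-0.46). VIM and CD44, which the line expresses, were high, and ESR1, PGR, CD3E and HBB were at or near 0. The 7 luminal breast markers that include ESR1 and PGR nevertheless summed to between 299 and 408 CPM in untreated cells. In that list GATA3 (-0.96) and EPCAM (-0.32) fell with TGFβ, while ERBB2 (0.02) and KRT8 (0.17) did not pass. Among 4 markers of the line, VIM (0.73) and CD44 (0.59) rose with TGFβ, AXL fell (-0.57) and KRT18 (-0.14) did not pass. Of 4 fibroblast markers the summed level was 17.0 to 21.3 CPM in untreated cells, 131 to 159 under TGFβ, 14.8 to 18.7 under alisertib and 93.6 to 133 when both were given, mostly COL1A1, which is also a TGFβ target. Of 7 blood markers it was 45.5 to 60.5, 72.0 to 80.6, 66.8 to 72.7 and 81.3 to 92.6 CPM, mostly CD68, which rose in all 3 treated groups, while CD14 fell with TGFβ (-1.43) and with both (-1.60), LYZ fell with TGFβ (-1.75) and PTPRC fell with both (-2.96). The part of these markers in the results was not tested. In bulk RNA, fewer cells of a type and less RNA per cell cannot be told apart.

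Scaled to gene length, the untreated levels of the members ran from 109 RPKM (reads per kilobase of gene, scaled to library size) for DDIT4, 97.8 for TARS and 81.4 for GARS down to 2.004 for SLC1A4, 0.785 for CHAC1, 0.268 for PHGDH, 0.0905 for STC2 and 0.00189 for CBS. ATF4 itself stood at 70.8. The low rank of PHGDH, the first enzyme of serine synthesis, which some breast cancers amplify, was shared by all 4 groups, with means of 0.208 to 0.268 RPKM.

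The response did not move as a block (map of members by library). With TGFβ, 12 of 43 genes rose, 9 fell and 22 did not pass the test, against 18.5% of all tested genes higher and 20.1% lower (38.6% called). The median log2 fold change was 0.07, beside -0.01 for all tested genes. With alisertib, 2 rose and 4 fell, against 3.55% and 3.19% of all tested genes (6.74% called), and the median was -0.02. With both agents, 13 rose and 10 fell relative to untreated cells, against 19.4% and 20.3% (39.7% called). Among cells given TGFβ, alisertib raised 1 member and lowered 2, against 1.19% and 0.89% (2.08% called). Among cells given alisertib, TGFβ raised 12 and lowered 10, against 19.4% and 19% (38.4% called). Calls are edgeR quasi-likelihood tests over all 12 libraries at a Benjamini-Hochberg adjusted p under 0.05, in what is called the main fit below. Without libraries 1, 6, 9 and 10, 22 rose and 9 fell with TGFβ, against 23.7% and 21.7% of all tested genes, and 7 rose and 11 fell with alisertib, against 11% and 13.5%. Relative to untreated cells 17 then rose and 12 fell with both, against 24.7% and 22.7%. Among cells given TGFβ alisertib then raised 1 and lowered 6, against 3.3% and 3.63%, and among cells given alisertib TGFβ raised 18 and lowered 12, against 25.7% and 23.1%.

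**Figure D1:**
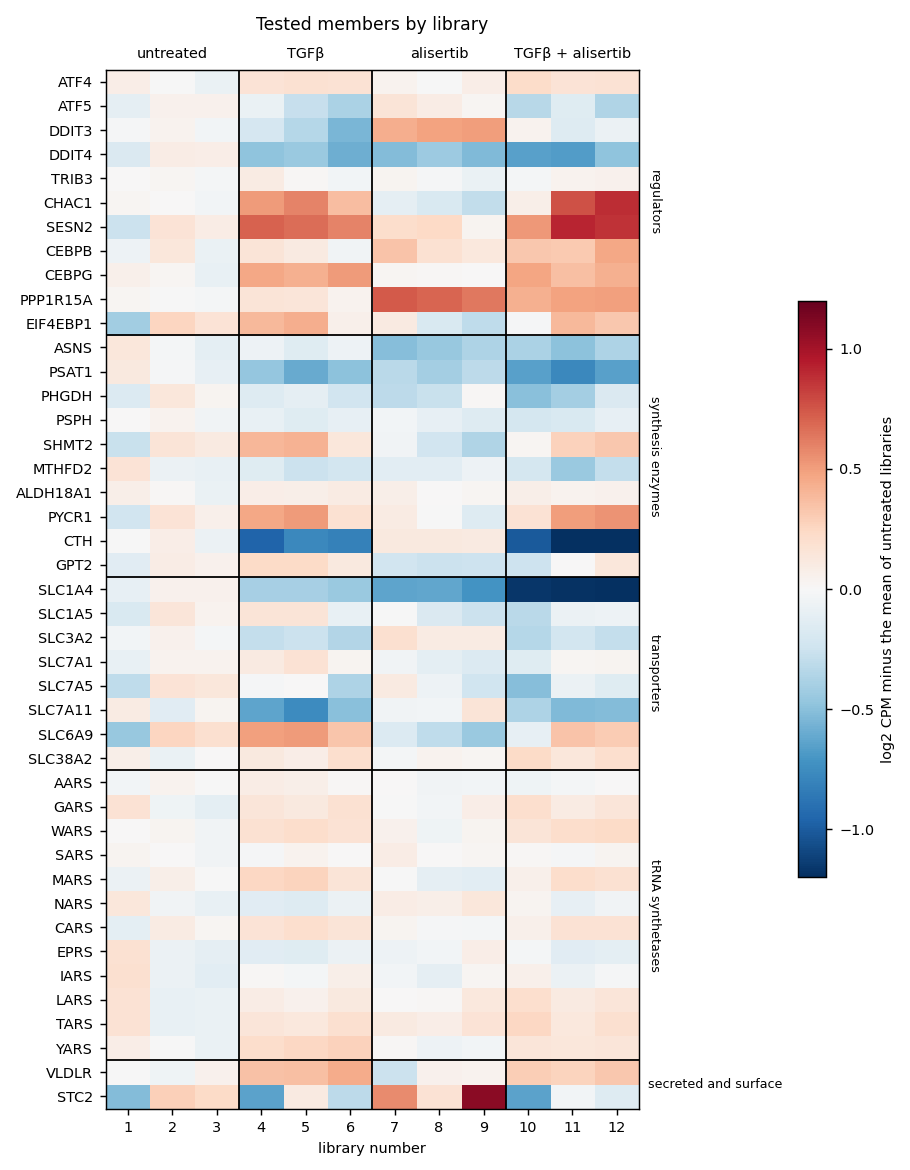
Level of each of the 43 tested members in each of the 12 libraries, as log2 CPM minus the mean of the untreated libraries, in rows by role and columns by group. The color scale ends at 1.2 in either direction. CTH and SLC1A4 are darkest in the cells given both agents, DDIT3 and PPP1R15A are red with alisertib, and the tRNA synthetases stay pale throughout.

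Among the regulators, ATF4 changed little, CHAC1, SESN2 and CEBPG were higher wherever TGFβ was present, and PPP1R15A and DDIT3 were raised by alisertib. Of 11, 4 rose and 3 fell with TGFβ, 2 rose and 1 fell with alisertib, and 6 rose and 2 fell with both. Over all tested genes, 18.5% rose and 20.1% fell with TGFβ, 3.55% and 3.19% with alisertib, and 19.4% and 20.3% with both. ATF4 (chromosome 22, 39915700 to 39918691, hg19) was at 188, 178 and 169 CPM untreated, 199.7, 202 and 200.5 with TGFβ, 183, 177 and 188 with alisertib, and 207, 199 and 200.3 with both. Every TGFβ-treated library lay above every untreated one, by a narrow margin, while alisertib alone overlapped the controls. The log2 fold change was 0.17 ± 0.05 (SE) with TGFβ (adjusted p = 0.00766, edgeR) and 0.18 with both (adjusted p = 0.00504). With an offset for GC content these became 0.01 (adjusted p = 0.959) and 0.07 (adjusted p = 0.681), so both calls were lost. Reads assigned to the pseudogenes ATF4P3 and ATF4P4 were 2.11% and 1.47% as many as those of ATF4.

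PPP1R15A (chromosome 19, 49375649 to 49379314, hg19) had the highest fold change of the 6 members called with alisertib. It was at 55.4, 54.4 and 53.6 CPM untreated, 60.5, 60.1 and 56.2 with TGFβ, 90.4, 88.4 and 84.6 with alisertib, and 73.2, 76.3 and 76.4 with both. The 4 groups did not overlap, and the cells given both agents lay between TGFβ and alisertib. The rise with alisertib was 1.61-fold (log2 0.69 ± 0.05, adjusted p = 3.39e-06, edgeR), and among cells given TGFβ it was 1.28-fold (0.35 ± 0.05, adjusted p = 0.00142). The difference of the 2 effects was -0.34 on the log2 scale (95% interval -0.49 to -0.18, adjusted p = 0.0591).

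DDIT3, the proapoptotic factor CHOP, moved in opposite directions with the 2 agents. Its levels were 15.9, 16.4 and 15.6 CPM untreated, 13.9, 12.6 and 10.9 with TGFβ, 21.5, 22.3 and 22.6 with alisertib, and 16.4, 14.4 and 15.2 with both. Alisertib libraries were all above and TGFβ libraries all below the untreated ones, and cells given both overlapped the untreated range. The log2 fold change was -0.36 ± 0.08 with TGFβ (adjusted p = 0.00341, edgeR), 0.47 ± 0.08 with alisertib (adjusted p = 0.00371) and -0.06 with both (adjusted p = 0.622). DDIT3 (chromosome 12, 57910371 to 57914300, hg19) overlaps the end of MARS, and the library kit named in the labels does not mark strand, so reads in the shared bases cannot be assigned.

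CHAC1, which degrades glutathione, was at 1.64, 1.62 and 1.57 CPM untreated, 2.31, 2.44 and 2.09 with TGFβ, 1.49, 1.41 and 1.31 with alisertib, and 1.70, 2.76 and 2.99 with both. Alisertib libraries were the lowest and TGFβ libraries lay above the untreated ones, but library 10, given both agents, stood well below its 2 companions. CHAC1 rose with TGFβ (0.50 ± 0.17, adjusted p = 0.0342, edgeR), with both relative to untreated cells (0.63, adjusted p = 0.00989) and with both relative to alisertib (0.82 ± 0.17, adjusted p = 0.00181). With 1 library of either group omitted, the first call failed in 5 of 6 fits, with adjusted p up to 0.107, and the second failed without library 12 (adjusted p = 0.0692). With a GC offset the fold changes were 0.17 (adjusted p = 0.38) and 0.34 (adjusted p = 0.0698).

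SESN2, a leucine sensor that restrains mTORC1, was at 5.89, 7.90 and 7.51 CPM untreated, 11.6, 11.3 and 10.7 with TGFβ, 8.14, 8.32 and 7.19 with alisertib, and 10.1, 13.3 and 12.8 with both. All 6 libraries with TGFβ lay above all 6 without. It rose 1.57-fold with TGFβ (log2 0.65 ± 0.12, adjusted p = 0.000547, edgeR) and 1.70-fold with both (adjusted p = 0.00013). CEBPG, the C/EBP partner of ATF4, rose from 43.1 ± 2.27 CPM (SD, n = 3) to 59.5 ± 1.70 with TGFβ and 57.7 ± 2.32 with both (log2 0.46 and 0.42), and with alisertib it was 43.5 ± 0.201. These calls of CEBPG had adjusted p = 5.46e-06 and 1.42e-05 in edgeR.

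DDIT4 (REDD1), another brake on mTORC1, fell with each agent. It was at 199, 239 and 237 CPM untreated, 160.5, 165 and 149 with TGFβ, 156, 166 and 155 with alisertib, and 143, 141 and 160.4 with both. Every treated library lay below every untreated one, and the 3 treated groups overlapped one another. The log2 fold changes were -0.51 ± 0.07 (adjusted p = 5.26e-05, edgeR), -0.50 ± 0.07 (adjusted p = 0.000929) and -0.60 ± 0.07 (adjusted p = 9.69e-06). DDIT4 is also known as a target of hypoxia and glucocorticoid signalling.

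TRIB3, a pseudokinase and a standard reporter of ATF4 activity, passed no test. It stayed at 16.2 to 16.8 CPM untreated, between 16.2 and 17.7 under TGFβ, 15.7 and 16.9 under alisertib, and 16.2 and 17.2 when both were given. Its 95% intervals relative to untreated cells were -0.11 to 0.17 under TGFβ, -0.16 to 0.12 under alisertib and -0.12 to 0.17 when both were given, on the log2 scale. EIF4EBP1, which blocks cap-dependent translation, passed no test either, with fold changes of 0.27, -0.15 and 0.21. Without libraries 1, 6, 9 and 10 EIF4EBP1 was called higher with TGFβ (0.20, adjusted p = 0.0182) and lower with alisertib (-0.24, adjusted p = 0.0132), and with a GC offset it stood at -0.11 with TGFβ (adjusted p = 0.0729). Of the other regulators, ATF5 fell with TGFβ (-0.24, adjusted p = 0.045, edgeR) and with both (-0.28, adjusted p = 0.0222), each call lost in 4 of 6 fits without 1 library. For ATF5 adjusted p reached 0.173 without library 6 and 0.0858 with both agents, and its locus overlaps other genes. CEBPB rose with both agents (0.37, adjusted p = 0.00406), and with a GC offset its fold change was 0.03 (adjusted p = 0.911).

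**Figure D2:**
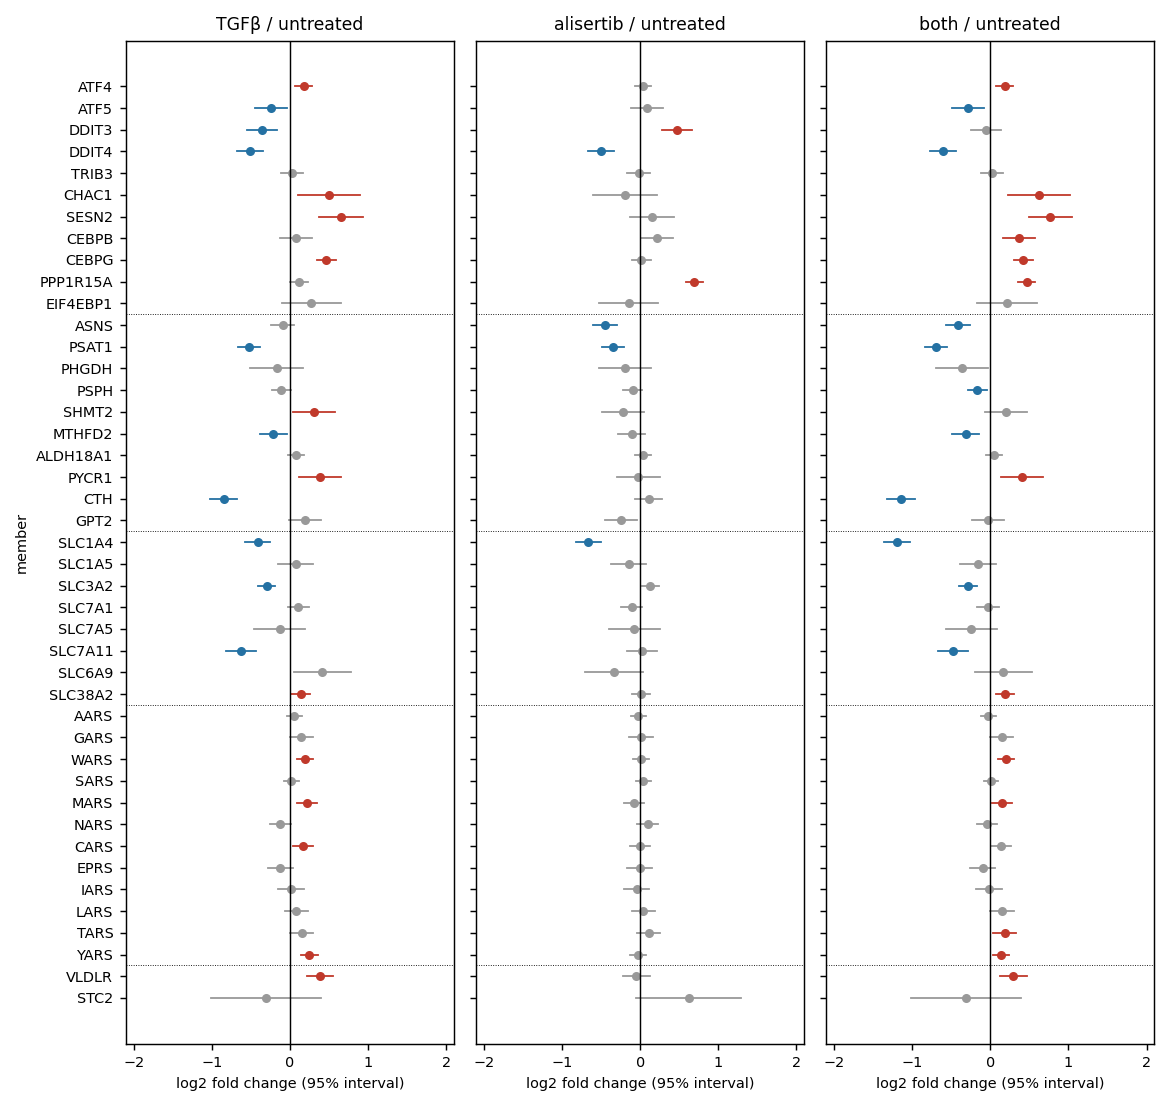
Log2 fold change of each tested member relative to untreated cells, with its 95% interval, for TGFβ, alisertib and both agents. Red and blue points passed the adjusted test as higher and lower, and gray points did not. In the middle panel the 2 red points are DDIT3 and PPP1R15A and the 4 blue points are DDIT4, ASNS, PSAT1 and SLC1A4.

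Among the synthesis enzymes, alisertib lowered ASNS and PSAT1, while TGFβ lowered CTH and PSAT1. Of the 10 tested, 2 rose and 3 fell with TGFβ, none rose and 2 fell with alisertib, and 1 rose and 5 fell with both. Of all tested genes, 18.5% had risen and 20.1% fallen with TGFβ, 3.55% and 3.19% with alisertib, and 19.4% and 20.3% with both. At an unadjusted p under 0.05 none rose and 3 fell with alisertib in edgeR, where the share of all tested genes was not computed. DESeq2 called 0 and 2, against 4.83% and 3.68% of all tested genes.

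ASNS, which makes asparagine (chromosome 7, 97481430 to 97501854, hg19), was at 82.9, 74.0 and 69.5 CPM untreated, 71.9, 67.9 and 72.0 with TGFβ, 52.7, 54.8 and 58.2 with alisertib, and 57.9, 53.6 and 58.2 with both. All 6 libraries with alisertib lay below all 6 without it. The log2 fold change was -0.45 ± 0.07 with alisertib (adjusted p = 0.000987, edgeR), -0.42 ± 0.07 with both (adjusted p = 0.000139) and -0.10 ± 0.07 with TGFβ (adjusted p = 0.275). Among cells given TGFβ it was -0.32 ± 0.07 (adjusted p = 0.022), a call lost in 4 of 6 fits without 1 library, with adjusted p up to 0.108 without library 11.

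PSAT1, the aminotransferase of serine synthesis (chromosome 9, 80912059 to 80945009, hg19), was at 121, 109.7 and 104 CPM untreated, 80.4, 73.0 and 79.0 with TGFβ, 88.7, 83.8 and 89.5 with alisertib, and 70.7, 64.9 and 70.5 with both. The 4 groups did not overlap, with untreated cells highest and cells given both lowest. It fell by 0.52 ± 0.06 with TGFβ (adjusted p = 9.16e-06, edgeR), 0.35 ± 0.06 with alisertib (adjusted p = 0.00359) and 0.70 ± 0.06 with both (adjusted p = 4.76e-07), all on the log2 scale. Among cells given TGFβ the alisertib difference was -0.17 (adjusted p = 0.222).

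The neighbours of PSAT1 in the serine pathway moved less. PHGDH was at 1.33, 1.65 and 1.53 CPM untreated, 1.34, 1.39 and 1.28 with TGFβ, 1.199, 1.24 and 1.52 with alisertib, and 1.05, 1.12 and 1.33 with both. In the main fit it passed no test, and its fold change with both agents was -0.36 (95% interval -0.70 to -0.03, adjusted p = 0.0631, edgeR). PHGDH was called lower with both agents when library 1 (adjusted p = 0.0394) or library 12 (adjusted p = 0.0367) was left out, and with a GC offset (adjusted p = 0.0402). PSPH, the last enzyme of the pathway, fell with both agents (-0.16, adjusted p = 0.0258), a call lost in 3 of 6 fits without 1 library, and its pseudogene PSPHP1 had 11.3% as many reads. SHMT2, which turns serine into glycine in mitochondria, rose with TGFβ (0.31, adjusted p = 0.0483, lost in 4 of 6 such fits, up to 0.253 without library 1).

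MTHFD2, the mitochondrial folate enzyme next to SHMT2, was at 61.8, 52.5 and 51.9 CPM untreated, 49.98, 46.1 and 47.3 with TGFβ, 50.7, 50.5 and 53.0 with alisertib, and 47.6, 40.6 and 45.2 with both. Library 1 was the highest, and the libraries with TGFβ lay below the untreated ones. MTHFD2 fell with both agents (-0.32, adjusted p = 0.00322, edgeR) and with TGFβ (-0.21, adjusted p = 0.0331), and the second call was lost in 3 of 6 fits without 1 library, with adjusted p = 0.138 without library 1. Without libraries 1, 6, 9 and 10 the TGFβ fold change was -0.12 (adjusted p = 0.0627).

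CTH, the cystathionine γ-lyase that releases cysteine (chromosome 1, 70876901 to 70905534, hg19), had the largest change of any member in any comparison. It was at 18.3, 19.4 and 17.4 CPM untreated, 9.42, 10.7 and 10.4 with TGFβ, 19.9, 19.8 and 19.8 with alisertib, and 9.11, 7.92 and 7.94 with both. The libraries with TGFβ lay far below those without, and the alisertib libraries lay just above the untreated ones. CTH fell 1.80-fold with TGFβ (log2 -0.85 ± 0.08, adjusted p = 5.15e-07, edgeR), 2.21-fold with both relative to untreated cells (-1.14 ± 0.08, adjusted p = 2.36e-08) and 2.38-fold with both relative to alisertib (-1.25 ± 0.08, adjusted p = 1.08e-08). With alisertib alone the fold change was 0.11 ± 0.08 (adjusted p = 0.466).

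PYCR1, the last enzyme of proline synthesis in mitochondria, went the other way. It was at 38.8, 51.0 and 47.6 CPM untreated, 62.7, 65.0 and 51.6 with TGFβ, 48.9, 45.3 and 41.0 with alisertib, and 51.3, 64.4 and 66.2 with both. Libraries 1, 6, 9 and 10 were the lowest of their groups. It rose with TGFβ (0.38, adjusted p = 0.0196, edgeR) and with both (0.40, adjusted p = 0.0141), and each call was lost in 4 of 6 fits without 1 library (adjusted p up to 0.122 and 0.0933, both without library 1). With no filter on low counts both PYCR1 calls were lost as well (adjusted p = 0.126 and 0.104). With a GC offset the TGFβ value was 0.09 (adjusted p = 0.0924). ALDH18A1, which opens proline synthesis, and GPT2, the mitochondrial alanine aminotransferase, were called in no comparison of the main fit. Without libraries 1, 6, 9 and 10 ALDH18A1 was higher with TGFβ (0.11, adjusted p = 0.0163), and GPT2 was higher with TGFβ (0.16, adjusted p = 0.0256) and lower with alisertib (-0.31, adjusted p = 0.000502).

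Among the transporters, SLC1A4 was lowered by each agent and most by both, and the cystine exchanger subunits SLC7A11 and SLC3A2 were lowered by TGFβ. Of 8, 1 rose and 3 fell with TGFβ, 1 fell with alisertib, and 1 rose and 3 fell with both, against the same shares of all tested genes (18.5% and 20.1%, 3.55% and 3.19%, 19.4% and 20.3%). SLC1A4 (ASCT1), a carrier of alanine, serine and cysteine (chromosome 2, 65215611 to 65250999, hg19), was at 13.0, 14.4 and 14.4 CPM untreated, 10.5, 10.6 and 10.2 with TGFβ, 8.924, 8.9997 and 8.417 with alisertib, and 6.16, 6.10 and 6.001 with both. The 4 groups did not overlap. It fell by 0.42 ± 0.07 with TGFβ (adjusted p = 0.000223, edgeR), 0.66 ± 0.07 with alisertib (adjusted p = 7.93e-05) and 1.19 ± 0.07 with both (adjusted p = 5.39e-09), the last a 2.29-fold decrease. Alisertib lowered it by 0.78 ± 0.07 among cells given TGFβ (adjusted p = 0.000162), and the difference of the 2 alisertib effects was -0.11 (95% interval -0.34 to 0.11).

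SLC7A11 (xCT), the light chain that imports cystine, was at 36.4, 31.1 and 34.8 CPM untreated, 21.97, 20.2 and 24.0 with TGFβ, 33.2, 33.3 and 37.9 with alisertib, and 26.3, 23.5 and 23.7 with both. The 6 libraries with TGFβ lay below the 6 without. It fell by 0.63 ± 0.08 with TGFβ (adjusted p = 3.05e-05, edgeR) and by 0.48 ± 0.08 with both (adjusted p = 0.000363) on the log2 scale.

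SLC3A2 (CD98), the heavy chain that SLC7A11 and SLC7A5 share, was at 194, 205 and 195 CPM untreated, 162.5, 165.5 and 155 with TGFβ, 225.5, 213 and 211 with alisertib, and 156, 169.7 and 162 with both. TGFβ libraries were again lowest, and alisertib libraries lay above the untreated ones. SLC3A2 fell with TGFβ (-0.30 ± 0.05, adjusted p = 0.000176, edgeR), and its 0.13 ± 0.05 with alisertib did not pass (adjusted p = 0.143). SLC7A5 (LAT1), the leucine exchanger, was at 291, 403 and 393 CPM untreated, 356, 359.6 and 278 with TGFβ, 385.5, 344.5 and 304 with alisertib, and 252, 342 and 323 with both. In the main fit SLC7A5 passed no test, at -0.13 with TGFβ, -0.07 with alisertib and -0.25 with both. Its range within each group was wider than the largest difference between group means. Without libraries 1, 6, 9 and 10 it was called lower with TGFβ (-0.15, adjusted p = 0.00355), alisertib (-0.12, adjusted p = 0.0343) and both (-0.26, adjusted p = 1.27e-05). With a GC offset the SLC7A5 values were -0.41 with TGFβ (adjusted p = 5.62e-09) and -0.46 with both (adjusted p = 8e-10).

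SLC6A9, a glycine transporter, was at 10.2, 16.8 and 16.1 CPM untreated, 19.7, 19.9 and 17.7 with TGFβ, 12.5, 11.3 and 10.3 with alisertib, and 13.1, 17.8 and 17.3 with both. Libraries given TGFβ alone lay above the untreated and the alisertib libraries and overlapped those given both, and library 1 was lower than every alisertib library. It rose with both relative to alisertib (0.50, adjusted p = 0.0233, edgeR), a call lost in 4 of 6 fits without 1 library. Its 0.41 with TGFβ did not pass (adjusted p = 0.0553), but SLC6A9 was called higher with TGFβ in 6 of 13 alternatives. Its -0.34 with alisertib did not pass either (adjusted p = 0.266), but SLC6A9 was called lower with alisertib in 4 of 13. SLC38A2, the glutamine carrier SNAT2, rose with both (0.19, adjusted p = 0.00862, and 0.0519 without library 2) and with TGFβ (0.13, adjusted p = 0.0488), the latter lost in 4 of 6 such fits and in DESeq2 (adjusted p = 0.0591). SLC1A5 (ASCT2) and the arginine carrier SLC7A1 were called in no comparison of the main fit. With a GC offset SLC1A5 turned from 0.07 to -0.21 with TGFβ (adjusted p = 0.000612, edgeR).

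**Figure D3:**
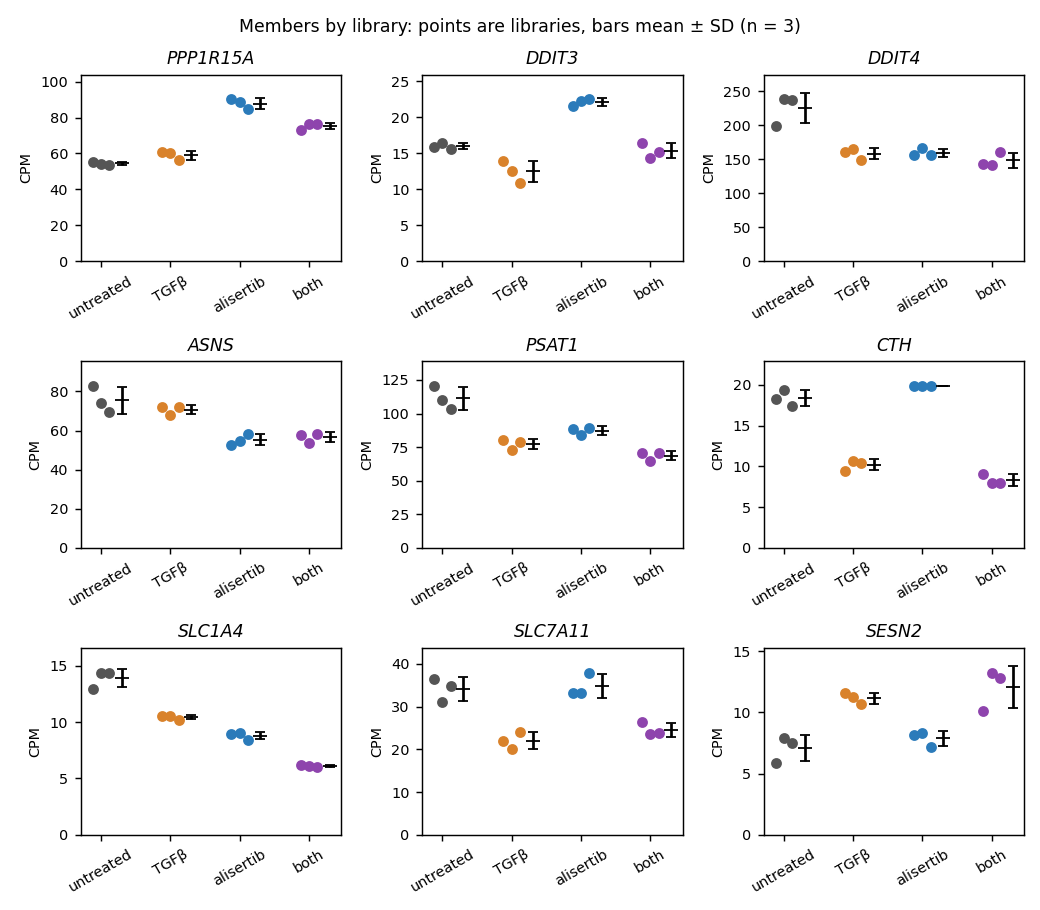
CPM of 9 members in each library, by group, with mean and SD (n = 3 libraries) and axes from 0. SLC1A4 and PSAT1 step down from untreated to cells given both, CTH and SLC7A11 are low only where TGFβ was given among these 4 groups, ASNS is low with alisertib, and PPP1R15A and DDIT3 peak with alisertib alone.

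The tRNA synthetases moved in a narrow band. Of 12, 4 rose and none fell with TGFβ (WARS, MARS, CARS and YARS), and 4 rose and none fell with both (WARS, MARS, TARS and YARS), against 18.5% and 20.1%, and 19.4% and 20.3%, of all tested genes. For falls, DESeq2 also called none in either comparison, against 19.5% and 19.9% of all tested genes. An unadjusted p under 0.05 in edgeR was reached by 1 and by none, with no share of all tested genes computed. With alisertib none was called in the main edgeR fit or by DESeq2, against 6.74% and 8.51% of all tested genes. None reached an unadjusted p under 0.05 in edgeR either, where that share was not computed. The 12 fold changes ran from -0.08 to 0.11. Without libraries 1, 6, 9 and 10, however, NARS (0.15, adjusted p = 0.00209), TARS (0.18, adjusted p = 0.000238) and LARS (0.10, adjusted p = 0.0318) were called higher with alisertib. NARS and TARS were each called higher in 4 of 13 alternatives, among them a model term for those libraries and a GC offset. In these 2 fits 8.85% and 9.75% of all tested genes were higher. AARS and SARS were called in no fit of any comparison. In the main fit GARS, NARS, EPRS, IARS and LARS were called in no comparison. Without those 4 libraries GARS was higher with TGFβ (0.21, adjusted p = 1.17e-05, edgeR) and with both (0.21, adjusted p = 1.58e-05). LARS was then also higher with TGFβ (0.16, adjusted p = 0.000378) and with both (0.21, adjusted p = 7.44e-06).

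WARS, the tryptophan enzyme, was at 93.3, 95.03 and 89.95 CPM untreated, 105, 107 and 105 with TGFβ, 95.96, 89.3 and 95.1 with alisertib, and 103, 107 and 109 with both. The libraries with TGFβ lay above all others, and the rise was 0.19 on the log2 scale (adjusted p = 0.00368, edgeR). YARS, the tyrosine enzyme, was at 186, 176 and 167 CPM untreated, 204, 209 and 213.5 with TGFβ, 178, 168 and 172 with alisertib, and 194.2, 193.7 and 194.1 with both. Its TGFβ libraries lay highest, with a rise of 0.25 (adjusted p = 0.000628), which became 0.11 (adjusted p = 0.391) with a GC offset. Its rise with both (0.14, adjusted p = 0.027) was lost in 5 of 6 fits without 1 library and became 0.04 (adjusted p = 0.757) with a GC offset, so that of the 4 synthetases called with both WARS held in every alternative and MARS, TARS and YARS did not.

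MARS, the methionine enzyme, was at 136, 149.9 and 142 CPM untreated, 169, 171 and 159 with TGFβ, 142, 132 and 130.5 with alisertib, and 148, 164.5 and 161.5 with both. It rose with TGFβ (0.22, adjusted p = 0.00555, edgeR) and with both (0.15, adjusted p = 0.0459), where library 10 fell inside the untreated range. The second MARS call was lost in 4 of 6 fits without 1 library, with adjusted p up to 0.182 without library 12. TARS, the threonine enzyme, was at 627, 523 and 527 CPM untreated, 614, 608 and 637 with TGFβ, 600.5, 589 and 623 with alisertib, and 662, 608 and 636 with both. Library 1 stood with the treated libraries, and the rise of TARS with both (0.18, adjusted p = 0.0317) was lost in 4 of 6 fits without 1 library. The rise of CARS with TGFβ (0.17, adjusted p = 0.0267) was lost in 3 of 6.

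VLDLR, a lipoprotein receptor raised by ATF4 under stress, was at 41.8, 40.5 and 43.5 CPM untreated, 53.4, 53.99 and 57.0 with TGFβ, 35.0, 43.5 and 43.3 with alisertib, and 51.6, 50.3 and 52.5 with both. Every library with TGFβ lay above every library without, and VLDLR rose by 0.39 ± 0.07 on the log2 scale with TGFβ (adjusted p = 0.000691, edgeR) and by 0.30 with both (adjusted p = 0.00494). STC2, a secreted glycoprotein, had 35 to 116 reads per library. It was at 0.370, 0.659 and 0.635 CPM untreated, 0.338, 0.581 and 0.429 with TGFβ, 0.805, 0.610 and 1.16 with alisertib, and 0.337, 0.525 and 0.481 with both. STC2 was lower with both than with alisertib (-0.93, adjusted p = 0.0228, edgeR). Without library 9 this call was lost (adjusted p = 0.123), as it was without library 10 (adjusted p = 0.0777). It was also lost without libraries 1, 6, 9 and 10, where the fold change was -0.50 (adjusted p = 0.164).

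Among genes whose promoters were searched, those with TGATGNAA and those without it each held genes that rose and genes that fell with TGFβ. With alisertib, 2 of the 14 with the motif fell (ASNS and SLC1A4), while of the 21 tested without it 2 rose and 2 fell. With TGFβ, 4 of 14 rose and 2 fell with the motif, and 5 of 21 rose and 6 fell without it, against 18.5% and 20.1% of all tested genes. With alisertib the shares of all tested genes were 3.55% and 3.19%. The 8 letters TGATGCAA, on either strand, thus lay in the searched promoters of CEBPG, which rose with TGFβ, SLC1A4, which fell, and AARS, which passed no test.

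Alisertib was given in 2 settings that share no library, with TGFβ and without. Over the 43 members the 2 alisertib effects had the same sign in 34, with Pearson's r = 0.75 and Spearman's rho = 0.73 across genes, which share the libraries of each comparison and are not replicates. The 2 TGFβ effects, with and without alisertib, had the same sign in 39 (r = 0.91, rho = 0.94). These measures were not computed over all tested genes, so the agreement may not be particular to the members. PPP1R15A, ASNS and SLC1A4 were called with alisertib in both settings, in the same direction. The share of all tested genes called in both settings was not computed. DDIT3 had 0.47 without and 0.30 with TGFβ (adjusted p = 0.0953, edgeR).

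**Figure D4:**
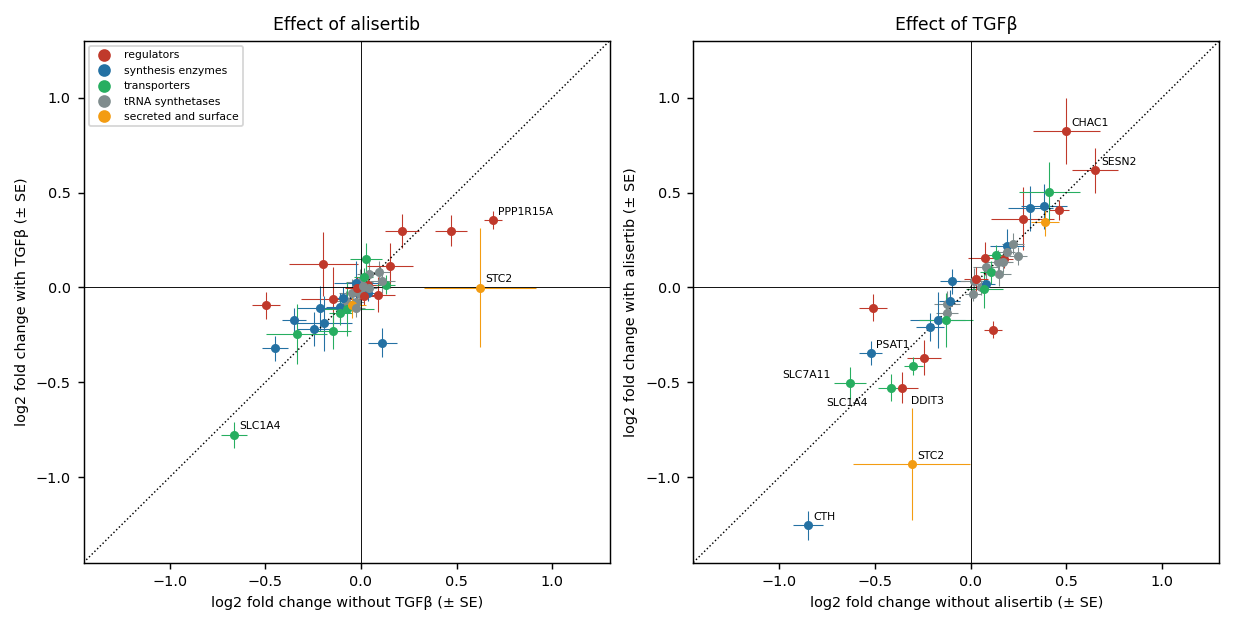
Log2 fold change of each tested member with 1 agent when the other agent was absent (x axis) and present (y axis), with standard errors. The dotted line marks equal effects. SLC1A4 and PPP1R15A stand at the ends of the alisertib panel, and CTH lies farthest down in the TGFβ panel.

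The difference between the alisertib effects with and without TGFβ passed the test for no member, against 0.282% of all tested genes. DESeq2 called 0 higher and 2 lower, against 0.34% and 0.54% of all tested genes. At an unadjusted p under 0.05 in edgeR 1 member was higher and 2 lower, with no share of all tested genes computed. These 3 were DDIT4 (0.40 ± 0.10, adjusted p = 0.173), whose fall with alisertib was seen without TGFβ, CTH (-0.40 ± 0.11, adjusted p = 0.227) and PPP1R15A (adjusted p = 0.0591). PPP1R15A passed in DESeq2 (adjusted p = 0.000933), with other size factors (adjusted p = 0.0443), and without libraries 1, 6, 9 and 10 (adjusted p = 0.000126). CTH passed in DESeq2 (adjusted p = 0.047) and without those libraries (adjusted p = 0.015), where DDIT4 also passed (adjusted p = 0.000899).

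Related genes give the setting. Of 17 other known ATF4 targets tested, 6 rose and 3 fell with TGFβ, and 3 rose and 1 fell with alisertib, against 18.5% and 20.1%, and 3.55% and 3.19%, of all tested genes. With TGFβ the largest changes were in GDF15, a stress cytokine (-2.06), VEGFA (1.78) and CEBPD (-1.77). With alisertib GADD45A, a growth arrest gene that p53 also controls, rose from 18.1 ± 1.46 to 32.8 ± 0.671 CPM (SD, n = 3), and ATF3, a repressor in the same family as ATF4, rose from 7.75 ± 0.385 to 10.2 ± 0.578. ATF3 was 3.90 ± 0.125 with TGFβ and 5.29 ± 0.378 with both, and GADD45A was 17.5 ± 0.413 and 24.0 ± 0.452. Both genes were also higher with both agents than with TGFβ (0.44, adjusted p = 0.0147, and 0.45, adjusted p = 0.0017, edgeR). BBC3, which encodes the death protein PUMA, fell with alisertib (-0.79).

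Genes of the unfolded protein response that act outside ATF4 rose with TGFβ in 15 of 19 and fell in 1, against 18.5% and 20.1% of all tested genes, with a median log2 fold change of 0.35. HERPUD1, of endoplasmic reticulum degradation, rose by 0.53 ± 0.06, CRELD2 by 0.52 and the chaperone HYOU1 by 0.49. With alisertib only ERN1, the sensor IRE1α, was called of these 19 (0.34, adjusted p = 0.00256, edgeR), against 6.74% of all tested genes. With a GC offset, however, 5 fell, against 7.62%, and without libraries 1, 6, 9 and 10, 8 fell, against 13.5%. With both agents 16 of the 19 rose and none fell relative to untreated cells, against 19.4% and 20.3% of all tested genes. Of the eIF2 kinases and eIF2 machinery, 1 of 16 rose and 4 fell with TGFβ, and with alisertib the 16 log2 fold changes ran from -0.10 to 0.10.

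Of 8 cytosolic tRNA synthetases outside the list, 1 rose and 1 fell with TGFβ (HARS 0.22, FARSB -0.28), and of 17 mitochondrial ones 1 rose and 5 fell, again against 18.5% and 20.1% of all tested genes. Of 11 targets of NRF2, which also controls SLC7A11, 2 rose and 6 fell with TGFβ, with a median of -0.27, among them TXNRD1 (-1.41) and HMOX1 (2.14). Of 17 further enzymes of serine, folate and glutamine metabolism 4 rose and 7 fell with TGFβ. Of 13 further amino acid transporters 3 rose and 4 fell with TGFβ, against the same 18.5% and 20.1%. With alisertib none of the 13 rose and 2 fell, SLC1A3 and SLC1A1, against 3.55% and 3.19% of all tested genes.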

How the data were processed

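The authors deposited 1 table of raw read counts per gene for the 12 libraries, with gene lengths and positions. It also holds the authors' own RPKM values, which per the file header scale each count by gene length and library size, and whose implied library size was 1.10 to 1.11 times the summed counts; they served only for that check. The submitters' processing notes name bcl2fastq, TopHat, Subread, featureCounts and hg19; their settings are not given in the sources used here, and the labels' protocols name a library kit that does not mark strand. Genes kept by filterByExpr were scaled with TMM factors and tested with edgeR 4.0.16 (limma 3.58.1, R 4.3.3) in a robust quasi-likelihood fit of all 12 libraries in 4 groups with 8 residual degrees of freedom. P-values were adjusted by Benjamini-Hochberg over all tested genes and called under 0.05. Each SE was derived from the F statistic, and 95% intervals use the residual degrees of freedom. CPM and RPKM were computed here from the counts with TMM-scaled totals. Alternatives were DESeq2 1.42.0, other size factors, no filter, only the groups compared, a term for or omission of libraries 1, 6, 9 and 10, a GC offset (GENCODE transcripts) and leaving out each library. The fit was tested on simulated counts. Members and gene lists were chosen with earlier results of these data known. Values in every library are given for up to 4 called members per role with the largest fold changes and for 11 members set by name (TRIB3, PHGDH and SLC7A5 among them), and from each list of related genes up to 3 called genes with the largest fold changes per comparison. No pair of libraries held identical counts, and the correlation of log2 CPM within groups was 0.990 to 0.994.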

Additional observations from a re-analysis of the deposited data

Results flagged for a closer look

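The alisertib effect on SLC1A3, a glutamate and aspartate transporter outside the 44 genes, differed with and without TGFβ. SLC1A3 was at 21.98 ± 0.795 CPM (SD, n = 3) untreated, 14.0 ± 1.16 with alisertib, 4.22 ± 0.528 with TGFβ and 4.87 ± 0.499 with both. Alisertib changed it by -0.65 on the log2 scale without TGFβ and by 0.21 with it (adjusted p = 0.439), and the difference of the effects was 0.86 ± 0.14 (adjusted p = 0.025, edgeR).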

How the results depend on the processing

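Of the 75 calls of members in the 5 pairwise comparisons, 47 held in every alternative. They were 12 of 21 with TGFβ, 6 of 6 with alisertib, 13 of 23 with both, 2 of 3 for both against TGFβ and 14 of 22 for both against alisertib. The share of calls that held over all tested genes was not computed, so these counts do not set the members apart. Members higher with TGFβ numbered 12, 19 with a term for libraries 1, 6, 9 and 10, and 22 without them. The shares of all tested genes were 18.5%, 26% and 23.7%. Without 1 library 7 to 12 members were higher, against 14.7% to 17.8%. Members lower numbered 9 and 7 to 9 without 1 library, against 20.1% and 16.2% to 19.1%. With alisertib, members higher numbered 2, 6 with the term, 7 without the 4 libraries and 5 with the GC offset. Of all tested genes 3.55%, 8.85%, 11% and 9.75% were higher. Without 1 library 2 to 4 members were higher, against 1.98% to 6.54%. Members lower numbered 4, 9, 11 and 7 in the same order, against 3.19%, 10.9%, 13.5% and 7.62%. Without 1 library 4 to 6 were lower, against 1.4% to 5.8%. With both agents 8 to 13 members were higher and 8 to 11 lower without 1 library, against 14.8% to 19.2% and 16.5% to 19.2%. For both against TGFβ, members higher numbered 1, 3 with the term, 2 with the GC offset and 3 in DESeq2. The shares of all tested genes were 1.19%, 4.46%, 4.71% and 1.94%. In each fit without 1 library 1 member was higher, against 0.394% to 0.646%. Members lower numbered 2, 8 with the term, 6 without the 4 libraries and 7 with the GC offset. The shares lower were 0.89%, 4.38%, 3.63% and 3.35%. Without 1 library 1 to 3 members were lower, against 0.332% to 0.551%. For both against alisertib 7 to 13 members were higher and 8 to 10 lower without 1 library, against 13.9% to 19.9% and 14.9% to 18%. For the difference of effects, members higher numbered 0, 1 with the term and 1 without the 4 libraries, against 0.117%, 0.894% and 2.31%. Without 1 library 0 to 1 were higher, against 0.019% to 0.38%. Members lower numbered 0, 1 with other size factors, 1 with no filter and 2 with the term. The shares lower were 0.165%, 0.17%, 0.151% and 0.963%. Another 3 settings gave 2 lower without the 4 libraries, 1 with the GC offset and 2 in DESeq2. There the shares were 1.28%, 0.836% and 0.54%. Without 1 library 0 to 1 were lower, against 0.057% to 0.408%. Over all genes, calls with alisertib were 6.74% of those tested, 19.7% with the term and 24.5% without the 4 libraries. With the GC offset SLC1A5 turned to -0.21 with TGFβ, and ATF4 to -0.011 for both against alisertib; the cause was not tested. No paired analysis was possible because the library numbers run from 1 to 12 and no number is shared between groups.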
